A study of Mus musculus with 6 samples.

Results

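The fluid that bathes the apical side of the vestibular epithelium, the endolymph, is kept rich in K+ and at a controlled pH by nonsensory cells that border the cristae and utricles. In the dark cells, the Na+-K+-2Cl- cotransporter NKCC1 (Slc12a2) and the Na,K-ATPase take up K+ from the basolateral side, chloride channels with the subunit barttin (Bsnd) let Cl- recycle, and K+ leaves through the KCNQ1/KCNE1 channel into the endolymph. The neighbouring transitional cells carry pendrin (Slc26a4), which exchanges Cl- for HCO3-, and the forkhead factor FOXI1 is known in the inner ear for driving pendrin and a proton pump subunit, Atp6v1b1, in ion-transporting cells.

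The 7 genes examined were Slc12a2, Bsnd, Atp1b1 and Atp1b2 (Na,K-ATPase beta subunits), Slc26a4, Atp6v1b1 and Foxi1, matched by symbol, and all 7 were found, each once, among the 52636 genes of the table. Their expression was compared between 3 Control mice that drank plain water and 3 mice given 3,3'-iminodipropionitrile (IDPN), a nitrile toxic to the sensory hair cells (HCs), at 30 mM in the drinking water for 8 weeks. All 6 were male 129S1/SvImJ mice, with no genetic modification stated. They were aged 2 to 4 months at the start of the 8 weeks, and tissue was taken on the last day of treatment. For each animal 1 library was made from 2 utricles and 6 cristae pooled. This is bulk RNA, so fewer cells of a type and less RNA per cell cannot be told apart, and Slc12a2, Atp1b1 and Atp1b2 are also used by cells other than dark cells. The animal codes of the Control group begin alike and those of the IDPN group do not begin that way, so whatever that beginning marks cannot be told apart from the treatment.

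Values are estimated counts divided by a size factor per library (normalized counts). Total estimated counts ran from 40474847 to 43566332 per library. Up- or downregulated genes are those with a fold change above 1.5 and a DESeq2 adjusted p (Padj) below 0.05. Over all 17650 genes with a Padj, 2.32% were called upregulated and 3.42% downregulated. The size factors set the zero of the comparison. With total counts as size factors the median log2-Fold_Change of these genes shifted by 0.25, the calls were 3.64% up and 1.28% down, and 23.8% of genes were lower in IDPN in place of 48.4%.

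Of the 7 genes, 5 were abundant enough to receive a Padj, and 1 of the 5, Atp1b1, was called downregulated. None was called upregulated by DESeq2 or edgeR. At an unadjusted p under 0.05 the count upregulated was 0 with either tool, while 2 were lower with DESeq2 and 1 with edgeR. The share of all genes at an unadjusted p under 0.05 is not given. Counts at that level, here and below, therefore cannot be set against the whole table. All 5 had a log2-Fold_Change below 0, with a median of −0.35 against 0.02 for all genes tested. Under total-count scaling the median was −0.10 against 0.27, with 4 lower and Bsnd higher (0.20). Foxi1 and Atp6v1b1 were at or near 0 counts in every library.

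The promoters of 3 of these genes are shown because they hold both the gene that was called and the pair that FOXI1 is known to drive. RefSeq sequences on GRCm38.p6, from 250 bases before to 50 bases after the annotated start, were at hand for 4 of the 7 genes. Capitals mark the forkhead core TAAACA, searched on both strands (TGTTTA on the other), which 13.4% of the 32851 promoters of this length hold. The Atp1b1 window is chr1:164458306-164458605 (minus strand), that of Slc26a4 is chr12:31559935-31560234 (minus strand) and that of Atp6v1b1 is chr6:83742767-83743066 (plus strand).
Atp1b1: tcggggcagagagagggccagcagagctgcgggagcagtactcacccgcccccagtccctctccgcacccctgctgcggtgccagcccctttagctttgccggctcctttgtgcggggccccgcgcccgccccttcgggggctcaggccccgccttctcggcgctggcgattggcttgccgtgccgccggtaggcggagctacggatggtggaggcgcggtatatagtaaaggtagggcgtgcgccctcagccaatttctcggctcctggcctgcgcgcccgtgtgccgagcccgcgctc
Slc26a4: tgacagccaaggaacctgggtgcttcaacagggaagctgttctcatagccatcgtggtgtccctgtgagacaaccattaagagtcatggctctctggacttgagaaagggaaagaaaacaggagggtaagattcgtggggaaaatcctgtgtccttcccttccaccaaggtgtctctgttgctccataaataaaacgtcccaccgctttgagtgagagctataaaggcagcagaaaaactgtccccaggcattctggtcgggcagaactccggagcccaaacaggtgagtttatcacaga
Atp6v1b1: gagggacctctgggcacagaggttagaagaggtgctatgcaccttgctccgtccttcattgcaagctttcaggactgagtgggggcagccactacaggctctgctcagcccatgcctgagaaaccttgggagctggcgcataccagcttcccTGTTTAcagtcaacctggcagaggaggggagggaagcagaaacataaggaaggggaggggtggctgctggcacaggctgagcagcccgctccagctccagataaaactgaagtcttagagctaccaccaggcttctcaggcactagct
The Atp6v1b1 window held 1 match, which begins 98 bases before the start. The Atp1b1 and Slc26a4 windows held none, nor did that of Foxi1. The G and C content was 71.0% in the Atp1b1 window and 57.3% in that of Atp6v1b1. These letters are a description of the windows and not of binding.

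Levels were compared between genes per kilobase of annotated exon. Atp1b2 was the most abundant in Control, at 11127 ± 2898 normalized counts per kb (SD, n = 3), followed by Atp1b1 at 7427 ± 1259, Slc12a2 at 975 ± 192, Slc26a4 at 636 ± 64.0 and Bsnd at 409 ± 132 (SD, n = 3 each). In IDPN the order was the same, at 8944 ± 1025, 3862 ± 644, 669 ± 209, 498 ± 98.0 and 375 ± 72.2 (SD, n = 3 each). Neighbours in the lower part of this order were not separated in every library. In IDPN 2, Slc26a4 (597 per kb) was above Slc12a2 (469.9), and in IDPN 3 Slc26a4 and Bsnd were both at 401 per kb. The place of Slc12a2 depends on the length used, because dividing by its longest transcript gave 1633 per kb in Control and put it above Slc26a4 in IDPN 2 as well. Foxi1 and Atp6v1b1 lay below all of them, at no more than 2.81 and 2.27 per kb of exon in any library (4.97 for Atp6v1b1 by longest transcript).

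**Figure D1:**
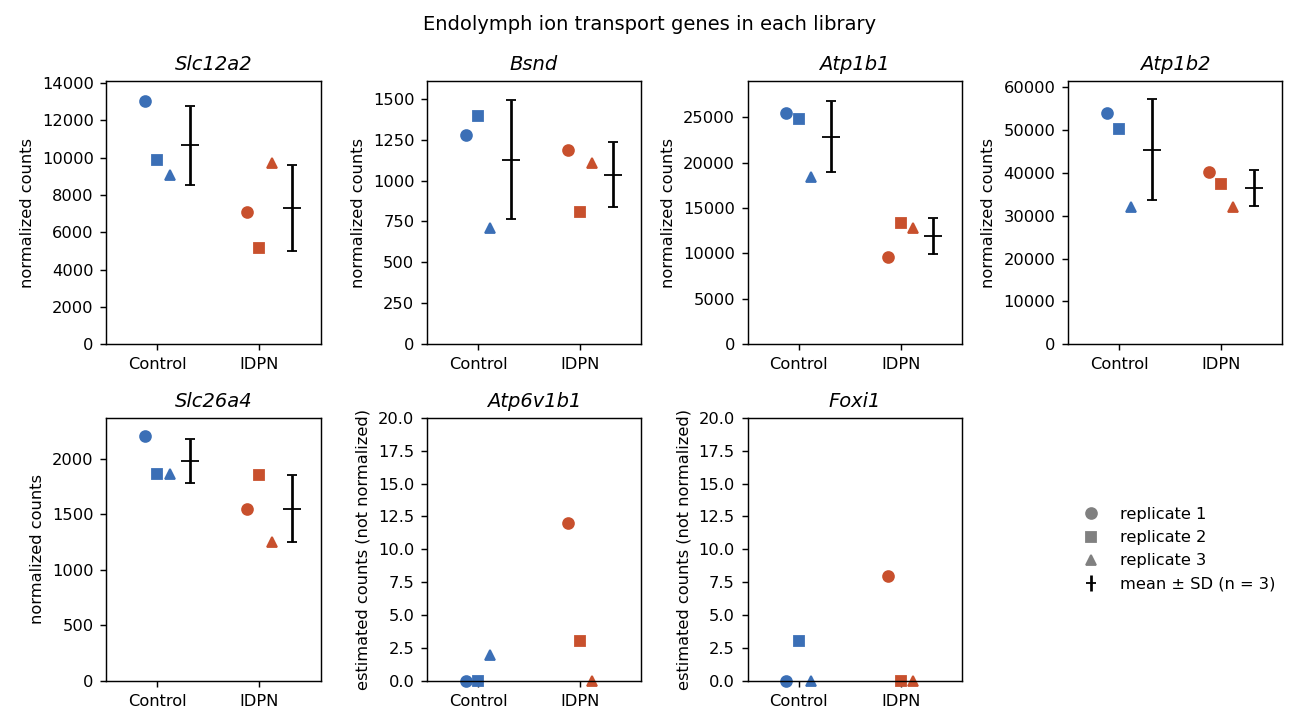
Level of each ion transport gene in the 6 libraries: vertical axes give normalized counts (estimated counts without normalization for Atp6v1b1 and Foxi1), each symbol is 1 animal, and black bars are the mean ± SD (n = 3) of the 5 genes with a Padj. The Atp1b1 points of IDPN, from 9630 to 13312, lie below all Control points, from 18420 to 25458, while those of Slc12a2, Bsnd and Atp1b2 overlap.

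Atp1b1 was downregulated and Atp1b2 was not called. The beta subunit is the partner that brings the catalytic subunit to the membrane, and beta1 and beta2 are alternative forms of it. Atp1b1 (ENSMUSG00000026576.12, chromosome 1, 164437109 to 164458355 on GRCm38) stood at 25458, 24767 and 18420 normalized counts in Control 1 to 3 and at 9630, 13312 and 12750 in IDPN 1 to 3. Every IDPN library was below every Control library, which holds for 11.4% of all genes tested in this direction and 11.1% in the other. Its mean fell from 22882 ± 3880 to 11897 ± 1984 (SD, n = 3 each). In log2-Fold_Change this was −0.94, with SE 0.19 and a 95% interval of −1.31 to −0.58 (DESeq2 Padj = 3.45e-05). The call was kept with edgeR (−0.94, adjusted p = 0.0369, where 1.02% of genes were called up and 2.19% down), under total-count scaling (−0.68, DESeq2 Padj = 0.0102) and in each of the 6 fits that left out 1 library, where the log2-Fold_Change ran from −1.08 to −0.81. The exons of Atp1b1 share 575 of 3081 bases with Nme7 on the opposite strand, and reads of the 2 genes cannot be told apart there without strand. Nme7 had 513 to 665 normalized counts over the 6 libraries and a log2-Fold_Change of −0.11 (DESeq2 Padj = 0.854).

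Atp1b2 (ENSMUSG00000041329.13, chromosome 11, 69599736 to 69605942) had 54051, 50360 and 31950 normalized counts in Control and 40191, 37449 and 31968 in IDPN. The groups overlapped, since Control 3 was as low as IDPN 3. The log2-Fold_Change was −0.32 (SE 0.20, 95% interval −0.71 to 0.08, DESeq2 Padj = 0.464), and −0.02 under total-count scaling. Without Control 3 it was −0.51 (DESeq2 Padj = 0.0151), which passed the threshold on Padj but not that on the fold change. A fall of 1.5-fold is inside the interval and is not shown to be absent.

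The ratio of the 2 genes within a library does not depend on any scaling. Atp1b2 had 2.12, 2.03 and 1.73 times the counts of Atp1b1 in Control 1 to 3 and 4.17, 2.81 and 2.51 times in IDPN 1 to 3. All IDPN libraries were above all Control libraries, and the mean log2 ratio was higher by 0.66 (two-sided exact permutation p = 0.10, the smallest that 3 against 3 libraries allow, and 0.20 adjusted over the 3 ratios reported). Another beta subunit gene, Atp1b3, was the most abundant of the 3 per kb. As shares of the summed beta levels per kb, Atp1b1 held 12.0% ± 0.434 in Control and 8.65% ± 1.68 in IDPN, Atp1b2 17.8% ± 2.28 and 19.9% ± 1.23, and Atp1b3 70.2% ± 2.64 and 71.5% ± 0.538 (SD, n = 3 each). The share of Atp1b1 in every IDPN library, from 6.73% to 9.92%, was below its share in every Control library, from 11.6% to 12.4%. These shares were computed after the levels had been seen and carry no test.

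**Figure D2:**
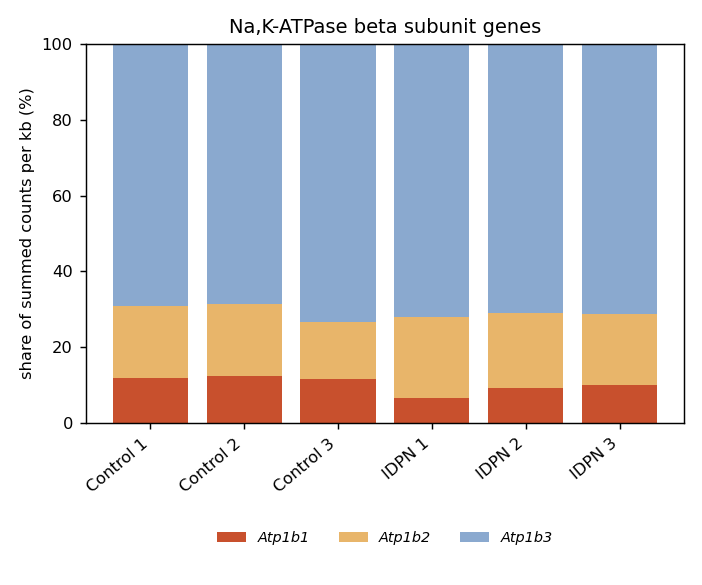
Share of each gene in the summed counts per kb of exon of the Na,K-ATPase beta subunit genes, in percent, with 1 stacked bar per library. The Atp1b1 share is lower in each IDPN library (6.73% to 9.92%) than in each Control library (11.6% to 12.4%), and Atp1b3 holds the greater part in all 6.

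Of the 9 other Na,K-ATPase genes counted, 6 had a Padj, of which 2 were called downregulated and 0 upregulated, with a median log2-Fold_Change of −0.39. At an unadjusted p under 0.05, 0 were higher with DESeq2 and 0 with edgeR, and 3 were lower with DESeq2 and 2 with edgeR. The downregulated genes were the small regulatory subunits Fxyd1 (phospholemman, −0.75, DESeq2 Padj = 0.00899) and Fxyd3 (−0.73, DESeq2 Padj = 0.00154). Fxyd3 kept its call with edgeR (adjusted p = 0.0239) and Fxyd1 did not (0.0747). Fxyd1 also lost its call without Control 1 (DESeq2 Padj = 0.0535), without Control 2 (0.160) or without IDPN 1 (0.101). Exons of Fxyd3 share 2059 of 4850 bases with Lgi4 on the opposite strand. Under total-count scaling neither was called, at −0.48 each. Atp1b3 was lower in every IDPN library without reaching the threshold (−0.43, DESeq2 Padj = 0.0655). Fxyd6, abundant at 39040 to 65869 normalized counts over the 6 libraries, had a log2-Fold_Change of −0.34 (DESeq2 Padj = 0.362).

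Slc12a2 (ENSMUSG00000024597.10, chromosome 18, 57878678 to 57946821), which encodes the K+ uptake cotransporter NKCC1, had 13028, 9844 and 9078 normalized counts in Control and 7087, 5132 and 9688 in IDPN. IDPN 1 and IDPN 2 were below all Control libraries, and IDPN 3 lay among them. The Control mean was 10650 ± 2095 and the IDPN mean 7302 ± 2286 (SD, n = 3 each). The log2-Fold_Change of −0.54 (SE 0.23, 95% interval −0.99 to −0.10) was not called (DESeq2 Padj = 0.151, edgeR adjusted p = 0.286). IDPN 3 decided the call. Without it the log2-Fold_Change was −0.80 (DESeq2 Padj = 0.0182), which is a call, and without IDPN 2 it was −0.34 (DESeq2 Padj = 0.486). Under total-count scaling it was −0.25 (DESeq2 Padj = 0.625).

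Bsnd (ENSMUSG00000025418.7, chromosome 4, 106483456 to 106492283) encodes barttin, the subunit that its chloride channels need to reach the membrane. It had 1280, 1392 and 711 normalized counts in Control and 1189, 810.3 and 1105 in IDPN. The 3 IDPN values lay inside the Control range. The log2-Fold_Change was −0.12 (SE 0.25, 95% interval −0.61 to 0.37, DESeq2 Padj = 0.883), and its sign turned under total-count scaling (0.20), without Control 2 (0.05) and without IDPN 2 (0.03). Relative to Slc12a2 in the same library, Bsnd was at 0.0982, 0.141 and 0.0783 in Control and 0.168, 0.158 and 0.114 in IDPN (higher by 0.49 on the log2 scale, exact permutation p = 0.20 and adjusted p = 0.20). Relative to Kcnq1 it was at 0.368, 0.407 and 0.295 and at 0.502, 0.386 and 0.529 (higher by 0.40, exact permutation p = 0.20, adjusted p = 0.20). Both pairs of groups overlapped.

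Kcnq1 and Kcne1, the subunits of the apical K+ channel, were not called. Kcnq1 had 3472, 3418 and 2408 normalized counts in Control and 2371, 2100 and 2088 in IDPN, all lower than Control (log2-Fold_Change −0.50, SE 0.18, DESeq2 Padj = 0.0778), and its exons share 121 of 4093 bases with Kcnq1ot1 on the other strand. Kcne1 had 12571, 9079 and 5787 in Control and 8802, 5749 and 5640 in IDPN, with overlapping groups (−0.44, SE 0.26, DESeq2 Padj = 0.387). Control 3 decided both calls, as without it Kcnq1 was at −0.66 (DESeq2 Padj = 0.000401) and Kcne1 at −0.69 (DESeq2 Padj = 0.0380). Control 3 was also the lowest Control library for Slc12a2, Bsnd, Atp1b1, Atp1b2 and Slc26a4, and its summed dark cell markers stood at 8792 against 16909 and 13259 in Control 1 and 2. Esrrb, a nuclear receptor that K+-secreting cells of the inner ear need, had a log2-Fold_Change of 0.38 (DESeq2 Padj = 0.386). Of the 4 partners of K+ secretion counted, 0 were called by DESeq2 or edgeR (0 higher and 1 lower at an unadjusted p under 0.05 with either), with a median of −0.16 and of 0.12 under total-count scaling.

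**Figure D3:**
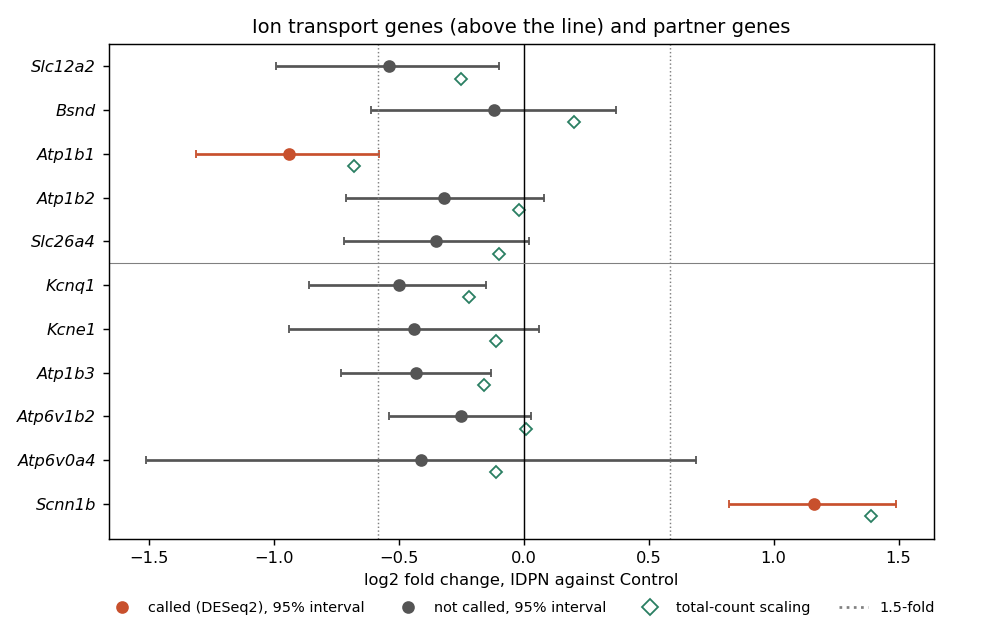
log2 fold change of IDPN against Control for the 5 ion transport genes with a Padj (above the line) and for partner genes: circles with bars are DESeq2 estimates with 95% intervals, red where called, and open diamonds are the estimates under total-count scaling. Atp1b1 (−0.94) lies farthest to the left and Scnn1b (1.16) farthest to the right.

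Slc26a4 (ENSMUSG00000020651.8, chromosome 12, 31519827 to 31559969), the pendrin gene, had 2206, 1864 and 1859 normalized counts in Control and 1547, 1855 and 1246 in IDPN. No IDPN library exceeded a Control library, but IDPN 2 was within 1% of Control 2 and Control 3. The log2-Fold_Change was −0.35 (SE 0.19, 95% interval −0.72 to 0.02, DESeq2 Padj = 0.326), and −0.10 under total-count scaling. It was not called in any fit that left out a library, where it ran from −0.50 to −0.22. As estimated counts without normalization, Slc26a4 had 1819, 1615 and 2090 in Control and 1869, 1848 and 1335 in IDPN, so the groups overlapped before scaling.

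The factor and the proton pump subunit that accompany pendrin in other ion-transporting cells were near the detection limit. Foxi1 (ENSMUSG00000047861.2, chromosome 11, 34204338 to 34208089) had 0, 3 and 0 estimated counts in Control and 8, 0 and 0 in IDPN. Atp6v1b1 (ENSMUSG00000006269.7, chromosome 6, 83742990 to 83758855) had 0, 0 and 2 in Control and 12, 3 and 0 in IDPN. IDPN 1 was the highest for both genes. A count of 0 allows up to 3 counts, or 0.0689 to 0.0741 CPM over the 6 libraries, from counting error alone. No difference was detectable for either gene at this depth, and neither received a Padj. The general form of the same subunit, Atp6v1b2, stood at 5821 to 6811 normalized counts in Control and 5082 to 5546 in IDPN (log2-Fold_Change −0.25, SE 0.15, DESeq2 Padj = 0.390, and 0.01 under total-count scaling). Atp6v1b1 therefore made up at most 0.219% of the summed B subunit levels per kb of exon in any library, or 0.255% by longest transcript.

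Other proton pump subunits with a restricted distribution were low as well. Atp6v0a4, which belongs to the same acid-secreting cells, had 16 to 48.5 normalized counts over the 6 libraries (log2-Fold_Change −0.41, SE 0.56, DESeq2 Padj = 0.803). Atp6v1c2 had 53.4 to 93.4 (0.13, DESeq2 Padj = 0.920), and Atp6v1g3 had 0 counts in every library. The 18 general subunits were all measured and none was called (0 with DESeq2 and 0 with edgeR). At an unadjusted p under 0.05, 5 were lower with DESeq2 and 3 with edgeR. Their median was −0.19, with 14 lower, and 0.07 under total-count scaling, with 7 lower. The levels of Atp6v1g1, Atp6ap1 and Atp6ap2, the 3 most abundant in Control per kb of exon (in IDPN, and by longest transcript in Control, Atp6v0c and Atp6v1f were above Atp6ap2), differed by −0.35, −0.35 and −0.32 on the log2 scale.

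Beyond the 7 genes, 106 genes of ion transport and its control were counted once each over 10 lists, and 84 had a Padj. Of the 84, 1 was called upregulated and 3 downregulated, with a median of 0.03 and 44 higher, against 2.32% and 3.42% called over all genes. Under total-count scaling 5 were called upregulated and 0 downregulated, against 3.64% and 1.28% over all genes. With that scaling 61 were higher, and the median was 0.29 against 0.27 for all genes tested. Scnn1b, the beta subunit of the epithelial Na+ channel that takes Na+ out of endolymph, rose from 541, 603 and 612 normalized counts in Control to 1199, 1463 and 1252 in IDPN. In log2 this was 1.16 (SE 0.17, DESeq2 Padj = 3.43e-09, edgeR adjusted p = 0.00219), and no fit without 1 library lost the call (1.07 to 1.22). Scnn1a, the alpha subunit, had 40.02, 75.0 and 72.1 normalized counts in Control and 127, 119 and 121 in IDPN, and missed the threshold (0.97, DESeq2 Padj = 0.0593, but called under total-count scaling at 1.21, DESeq2 Padj = 0.0466, and without Control 3 at 1.09, 0.0493). Scnn1g, the gamma subunit, had 23, 24.2 and 46.3 normalized counts in Control and 31.4, 16.1 and 27.1 in IDPN, with overlapping groups (−0.33, DESeq2 Padj = 0.852).

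In the other lists few genes were called. Among the 10 chloride channel genes counted, 9 were tested and 0 called by DESeq2 or edgeR, with 1 higher at an unadjusted p under 0.05 by either tool. Clcn2 was higher in every IDPN library (0.55, DESeq2 Padj = 0.0674). It was called under total-count scaling (0.81, DESeq2 Padj = 0.0329) and without Control 2 (0.76, 0.0032). Of the 9 tested, 6 were lower in IDPN, but 1 was lower and 8 were higher under total-count scaling. Of the 14 cotransporters and kinases around NKCC1, 11 were tested and 0 called by DESeq2 or edgeR, with 1 higher at an unadjusted p under 0.05 by either tool. The K+-Cl- cotransporter Slc12a4 was higher in every IDPN library (0.38, DESeq2 Padj = 0.141), and Stk39, the kinase SPAK that activates NKCC1, was at 0.04 (DESeq2 Padj = 0.954). Among the 20 anion exchangers and bicarbonate transporters, 14 were tested and 11 of these were higher in IDPN. Their median was 0.29 against 0.02 for all genes tested, and 0.48 against 0.27 under total-count scaling. Every IDPN library was above Control for 5 of the 14 and below for 2. Over all genes tested these shares were 11.1% and 11.4%, and the difference in number was not tested. Of these 14 only Slc4a4, a Na+-HCO3- cotransporter, was called, downward (−0.81, SE 0.26, DESeq2 Padj = 0.0388). It was not called by edgeR (adjusted p = 0.116), and of the 6 fits without 1 library it was called in the 2 without Control 2 (DESeq2 Padj = 0.0448) or IDPN 1 (0.0365). Nor was it called under total-count scaling (−0.57, DESeq2 Padj = 0.36) or with independent filtering off (DESeq2 Padj = 0.0561). Slc4a11 had 136, 84.3 and 263 normalized counts in Control and 1174, 550.2 and 234 in IDPN, a wide spread (log2-Fold_Change 2.02, SE 0.77, DESeq2 Padj = 0.104). Leaving out Control 3 (2.57, DESeq2 Padj = 0.0241) or IDPN 3 (2.41, 9.41e-06) made it a call.

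K+ channels of supporting and glial-like cells, Kcnj16 (−0.47, DESeq2 Padj = 0.0274) and Kcnj10 (−0.02, DESeq2 Padj = 0.982), were not called, the first because its fold change was under 1.5. The receptors that regulate K+ secretion gave 0 calls among 4 tested with DESeq2 and edgeR (1 and 0 higher at an unadjusted p under 0.05), and the most abundant, the ATP-gated channel P2rx2, was at −0.22 (DESeq2 Padj = 0.578). All 9 nonsensory otic transcription factors tested were higher in IDPN, with a median of 0.51, and none was called (3 at an unadjusted p under 0.05 with DESeq2 and 3 with edgeR). That shared direction rested on single libraries for Hmx3, at 0.68 and at −0.10 without IDPN 2, and for Dlx5, at 0.03 and at −0.10 without IDPN 1 and −0.02 without Control 2 or IDPN 3. Gata2 was a call without Control 2 (0.61, DESeq2 Padj = 0.0430). Control 1 stood apart in this list. Otx2 had 0 estimated counts in Control 1 and 89 to 314 in the other libraries, Tbx1 164 against 1234 to 2090, and, among the exchangers, Slc26a7 had 2 against 97 to 409. Of the 7 ion transport genes, those with a Padj kept their call or lack of call without Control 1.

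**Figure D4:**
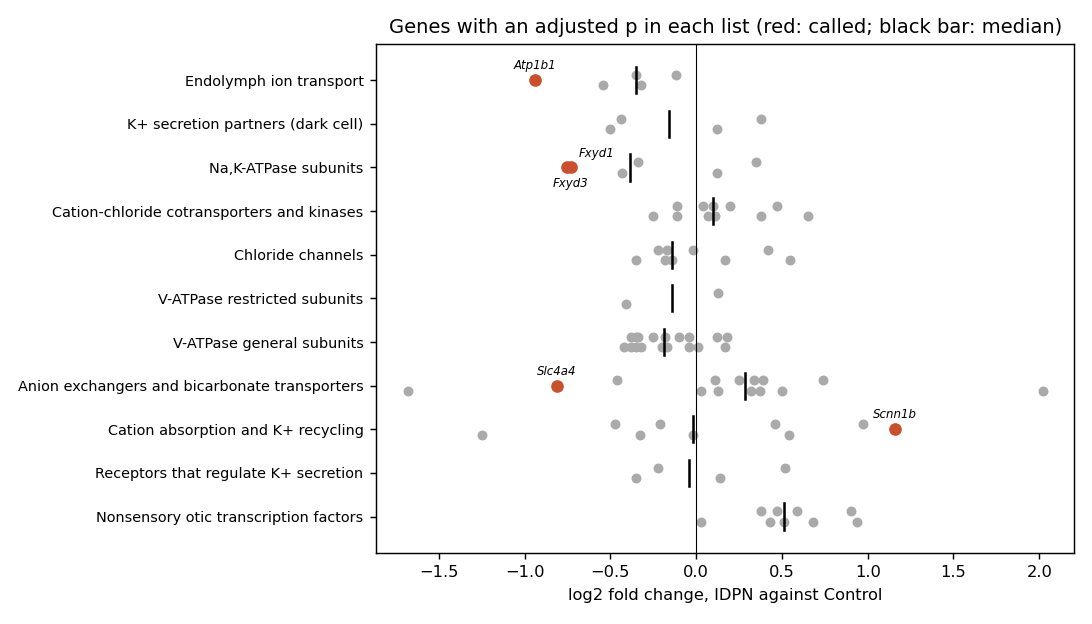
log2 fold change of IDPN against Control for every gene with a Padj, in 11 lists of ion transport genes: each circle is 1 gene, red circles are called and named, and black bars are list medians. Called genes are few in each list, and the medians lie between −0.39 for the other Na,K-ATPase genes and 0.51 for the nonsensory transcription factors.

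Cell type markers differed between the groups beside these genes. The 7 HC markers summed to 18644 to 19813 normalized counts in Control and 10368 to 11482 in IDPN, lower by 0.82 in log2 (the value was −0.82, two-sided exact permutation p = 0.10, the smallest possible, 0.25 adjusted over the 10 lists). Supporting cell markers were at 254165 to 369500 in Control and 169253 to 210744 in IDPN (−0.70), and neuron markers were at 4314 to 4447 and 2661 to 3049 (−0.61). Of the 7 HC markers, 5 were called downregulated by DESeq2, 4 by edgeR and 2 under total-count scaling, while Myo7a was at 0.01 (DESeq2 Padj = 0.987). Of the 5 supporting cell markers, DESeq2 called only Gjb6 (−0.94, Padj = 2.80e-05) and edgeR called 0. Lfng was higher (0.66, DESeq2 Padj = 0.369). Gjb6 and Gjb2 (−0.54, DESeq2 Padj = 0.0886) were the most abundant of these 5. The neuron sum was nearly all Nefl (−0.59, DESeq2 Padj = 0.00212) and Nefm (−0.64, DESeq2 Padj = 0.0218), neurofilament genes with overlapping exons, while Tubb3, Stmn2 and Nefh had under 20 normalized counts in every library and were not called. Under total-count scaling neither Nefl (−0.34) nor Nefm (−0.42) was called. Melanocyte markers were at 6366 to 14355 and 14606 to 22129 (0.70), with no overlap in any of these 4 lists and the same exact permutation p of 0.10. Without Control 3 the melanocyte difference was 0.31. With all 6 libraries, 0 of the 6 melanocyte genes were called by DESeq2 or edgeR. At an unadjusted p under 0.05, 3 were higher by either tool. Under total-count scaling 4 of the 6 were called upregulated. Tyrp1 was also called without Control 1 and without Control 3, and Mlana without IDPN 2. The 3 dark cell markers counted, Kcnq1, Kcne1 and Esrrb, summed to 8792 to 16909 in Control and 8618 to 12093 in IDPN (−0.36, exact permutation p = 0.30). On normalized counts, stroma (0.40), Schwann cell (−0.52), endothelium (−0.16), macrophage (0.07) and erythroid (0.92) sums overlapped between the groups. As CPM, the stroma (0.65), macrophage (0.32) and erythroid (1.18) differences had an exact permutation p of 0.10. The HC (−0.57), supporting cell (−0.44), neuron (−0.35) and melanocyte (0.95) sums kept that p as CPM, and the dark cell difference was −0.10. Single genes could differ from their sum. In the stroma list Pou3f4 was called downregulated (−0.72, DESeq2 Padj = 0.0120, edgeR adjusted p = 0.0457), though not under total-count scaling (−0.45), while the other 5 markers were higher. In the endothelium list 1 of 5 markers was called downregulated with DESeq2 and 1 with edgeR. Of the 5 erythroid genes 4 were called upregulated, Hba-a1 (0.83, DESeq2 Padj = 0.0318), Hba-a2 (0.85, 0.0316), Hbb-bs (0.83, 0.0327) and Alas2 (0.95, 0.0295), and edgeR called 0, with 4 higher at an unadjusted p under 0.05. Of the 6 fits without 1 library, the globin genes were called only in that without Control 2 (1.30, 1.34 and 1.30), and Alas2 only in those without Control 3 or IDPN 3 (1.08 in each). No list had a marker at 0 in all 6 libraries. The HC and supporting cell sums and the neurofilament genes thus differed in the direction of Atp1b1, though not every marker did. Erythroid genes and the melanocyte sum differed in that of Scnn1b. The part of these markers in either result was not tested.

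**Figure D5:**
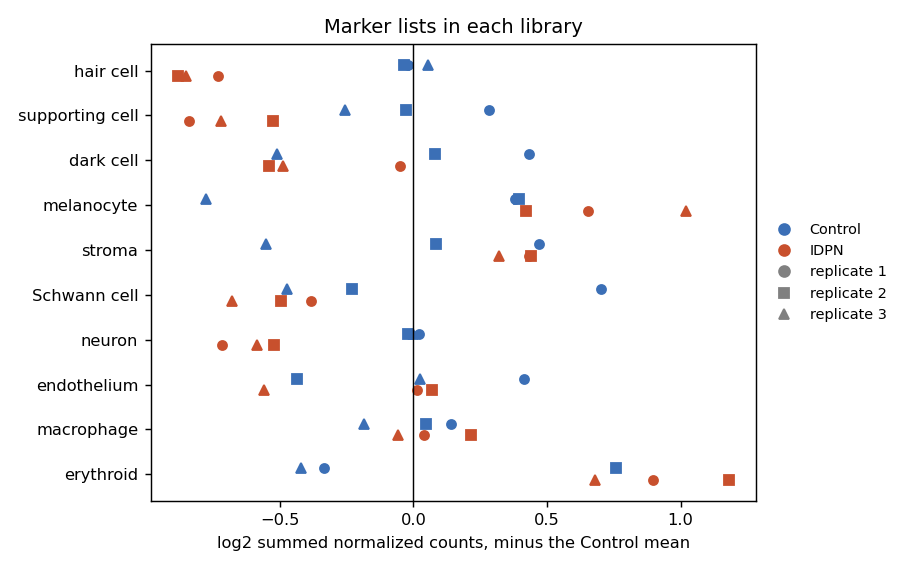
Summed normalized counts of 10 cell type marker lists in each library, in log2 relative to the Control mean of the same list: blue is Control, red is IDPN, and the symbol gives the replicate. All IDPN points lie below all Control points for HC, supporting cell and neuron sums and above them for melanocyte sums, and dark cell sums overlap.

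Genes whose levels followed a given ion transport gene most closely were listed from the Pearson correlation of log2(normalized count + 1) over the 6 libraries, among genes with a mean of at least 100. The libraries share their group and their size factors, so these values describe likeness only. Atp1b1 was most like mt-Co3 (r = 0.997), Ush1c (0.997) and Prdx4 (0.996), each of which was lower in every IDPN library. Slc12a2 was most like Sdr39u1 (0.993), Lrif1 (0.989) and Gnpda2 (0.988), all highest in Control 1 and lowest in IDPN 2. Bsnd was most like Iffo1 (0.991), Eef2kmt (0.979) and Slc16a11 (0.972), all lowest in Control 3. Atp1b2 was most like Apopt1 (0.993), Aebp1 (0.992) and Hsd17b4 (0.975), and Slc26a4 most like Ubac2 (0.986), Hsp90b1 (0.986) and Nfatc1 (0.982). No gene appeared under 2 of the 5 genes. Foxi1 and Atp6v1b1, at 0 in most or many libraries, were left out of this description.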

How the data were processed

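RNA-seq of the vestibular epithelium was compared between 3 Control and 3 IDPN mice. The authors aligned reads with STAR 2.5.3a to GRCm38 and estimated counts per gene with RSEM 2.3.0 on GENCODE M15. The deposited values are these expected counts, as whole numbers without normalization or filter. RSEM divides reads shared by similar genes. The SMART-seq2 protocol (6 to 11 ng of RNA, 8 and 12 amplification cycles) carries no molecular identifiers and does not keep strand, so floors cover counting error only. Each library was 1 animal, with replicates numbered in accession order.

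All genes were fitted with the DESeq2 Wald test (DESeq2 1.42.0, R 4.3.3, median-of-ratios size factors from 0.825 to 1.21, independent filtering), the test of the study's methods. The study used Padj under 0.05 and a fold change above 1.5, as here. Alternatives were the edgeR quasi-likelihood test (edgeR 4.0.16, TMM, filterByExpr), TMM or total-count size factors, a minimum of 10 counts in 3 libraries, independent or Cook's distance filtering off, no fold threshold, and leaving out each library. For ratios and marker sums, mean log2 values were tested by exact permutation (two-sided), adjusted by Benjamini-Hochberg. Of 6 planned ratios, 2 could not be computed because Atp6v1b1 or Foxi1 was at 0, and 1 is not reported here. Exon lengths and coordinates came from GENCODE M21 on the same build, found for 52403 of 52636 genes. The code was tested on simulated counts.

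The genes, lists and tests were chosen with earlier results of these data known. Named genes were the 7 genes, fixed partners, and in each list the called genes and the 3 most abundant per kb, of which not every one is described. Some listed genes are not reported here, and lists, marker sums and their adjusted p were computed without them.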

Additional observations from a re-analysis of the deposited data

How the results depend on the processing

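The call of Atp1b1 and Scnn1b was kept in all 13 alternatives run for each, and Bsnd, Atp1b2, Slc26a4, Atp6v0a4 and Atp6v1b2 were called in none. The direction turned for Bsnd (0.20 under total-count scaling, 0.05 without Control 2 and 0.03 without IDPN 2, with a range of −0.37 to 0.05 without 1 library) and Atp6v1b2 (0.01 under total-count scaling). The count of downregulated genes among the 7 ion transport genes was 1, and from 1 to 2 when a library was left out, the second being Slc12a2 without IDPN 3. Over all genes, DESeq2 called 410 upregulated and 604 downregulated, edgeR 166 and 357, and total-count scaling 609 and 214. Leaving out 1 library gave 234 to 611 upregulated and 436 to 720 downregulated. Among the further ion transport genes the counts were 1 up and 3 down, 1 and 1 with edgeR, 5 and 0 under total-count scaling, 2 up with a minimum of 10 counts in 3 libraries, and 1 to 4 up (4 without Control 3) and 1 to 4 down (1 without Control 1) without 1 library. Scaling shifts the whole table and edgeR tests with another model. The cause of the other changes was not tested. The ratio of Atp1b2 to Atp1b1 ran from 0.44 to 0.81 in log2 without 1 library, Bsnd to Slc12a2 from 0.29 to 0.72 and Bsnd to Kcnq1 from 0.27 to 0.54. Marker sums near 0 turned sign without 1 library, with ranges of −0.38 to 0.05 (endothelium, and 0.10 as CPM) and −0.03 to 0.14 (macrophage). No paired analysis was run, because neither the labels nor the study methods describe a pairing of Control and IDPN animals. Among the 7 genes, only Foxi1 and Atp6v1b1 lay near the detection limit at this depth, and why they were low was not tested.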
